A study of Homo sapiens with 12 samples.

Results

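The interleukins and their receptors were followed through the RNA-sequencing libraries of U937, as the gene symbols of the deposited table that begin with IL and a number. There were 85 such symbols among the 44786 of the table, after 5 symbols with a hyphen, all of them antisense RNAs, were left out. The table counts reads per transcript of the UCSC known gene set, and of the 550 rows that carried these symbols, the row with the highest mean over the 12 libraries stood for each gene. By role, 40 of the symbols were ligands, 38 were receptor chains and 6 were antagonists or decoy receptors, while 1, IL4I1, names an amino acid oxidase that is no interleukin. At least 1 read was counted for 61 of them, and 24 were listed at 0 in all 12 libraries. Levels were high enough for testing, with 10 or more normalized reads in 3 libraries or more, for 28 of them, namely 6 ligands, 21 receptor chains and 1 antagonist.

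U937 is a human leukemia cell line of myelomonocytic type, and each of its 4 groups (untreated, DAC, ATRA and DAC + ATRA) comprised 3 libraries. DAC (decitabine) depletes DNA methyltransferases once cells have incorporated it into DNA in place of deoxycytidine, and ATRA (all-trans retinoic acid) is the ligand of the retinoic acid receptors. The sample labels give 200 nM for DAC and 1 µM for ATRA, with a harvest at 72 h for the treated cells and at 96 h for the untreated cells, so that treatment and time in culture cannot be told apart where these labels hold. According to the study's methods, DAC was given in daily pulses and ATRA was added only with the last of them, while the labels describe treatment over all the days, so the length of exposure to ATRA is uncertain. In these methods a single harvest time is given for the RNA, which differs from the labels of the untreated cells. By the labels, every group grew in 20% FCS with 5 ng/ml GM-CSF, itself a cytokine whose receptor shares a chain with those of IL3 and IL5. The study's methods for its cell lines describe another medium with less FCS and no mention of GM-CSF, and controls given the vehicles, while the labels call the control group untreated, so the culture conditions are uncertain. The series' design text calls the replicates technical, and the p-values below then measure the spread between these libraries of 1 cell line and not between independent cultures.

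Interleukins are secreted proteins through which leukocytes signal to each other, and they act through receptors built from several chains, many of them shared between ligands. The receptors for IL2, IL4, IL7, IL15 and IL21 use the common gamma chain IL2RG and signal through JAK kinases to STAT factors, whereas the receptors of the IL1 family, which include those for IL18 and IL33, signal through MYD88 and IRAK kinases to NF-kB. Monocytic cells are a known source of IL1A, IL1B and the p40 subunit IL12B, and receptor chains such as IL2RA appear on leukocytes upon activation.

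Between 8042435 and 10683593 reads were counted per library. The deposited values are read counts divided by a size factor for each library, so that 3 reads corresponded to 2.50 to 3.71 normalized reads. The chi-square per degree of freedom between replicate libraries ran from 2.36 to 10.45 and was highest for ATRA libraries 8 and 9. Fold changes are given on the log2(normalized read count + 1) scale with their standard error (SE). Of 8 monocyte markers, 4 or 5 had a group mean of at least 10 in each group, among them CD33, LYZ, FCGR1A and SPI1, while CD14 had a mean of at most 1.59 and PTPRC, a gene of all leukocytes, was listed at 0 in every library. The zeros therefore do not show that a gene is silent. The summed monocyte markers ran from 1241 to 1345 in untreated cells, 1830 to 2071 with DAC, 1253 to 1318 with ATRA and 2040 to 2202 with both agents. LYZ accounted for the higher sums, with means of 164, 806, 179 and 1097 in this order, whereas the means of CD33 were 846, 835, 809 and 760, those of FCGR1A 161, 232, 139 and 132, and those of SPI1 127, 109, 160 and 118. All 5 erythroid markers were listed at 0, and the 4 epithelial markers summed to at most 9.96. In bulk RNA, fewer cells that express a gene and less of its RNA per cell cannot be told apart.

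Most of the tested interleukin and receptor transcripts that changed were higher after treatment. With DAC, 14 of the 28 rose and 0 fell, against 22.2% of all 19373 tested transcripts that were called higher and 11.3% that were called lower (33.5% in either direction) at an adjusted p under 0.01 (limma, Benjamini-Hochberg adjustment over all transcripts). ATRA alone changed fewer, with 6 higher and 2 lower, beside 5.11% and 1.87% of all transcripts (6.97% in either direction). With DAC + ATRA, 17 were higher and 2 were lower, and over all transcripts these shares were 25.5% and 16.1% (41.6% in either direction). The median log2 fold change of the 28 was 0.70 for DAC, 0.28 for ATRA and 1.06 for DAC + ATRA, where that of all transcripts was 0.05, 0.0 and 0.05. These comparisons share the untreated libraries. They also hold only members that passed the filter, and IL12B and IL1RAPL2 passed it with just 3 libraries at 10 or more. IL1A, IL1RL1, IL2RA and IL31RA likewise had no untreated library at 10 and passed only through treated groups. IL4R, IL12RB1 and IL15RA reached 10 in too few untreated libraries and also needed treated ones to pass. The filter thus in part set the counts of higher members and favoured the calls of these members against untreated cells. When at least 10 reads were required in every library, 19 members remained, of which 8 were called with DAC, all higher, and 11 with DAC + ATRA, 9 higher and 2 lower, beside 34.9% and 42.3% of the 11198 transcripts under that filter.

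**Figure D1:**
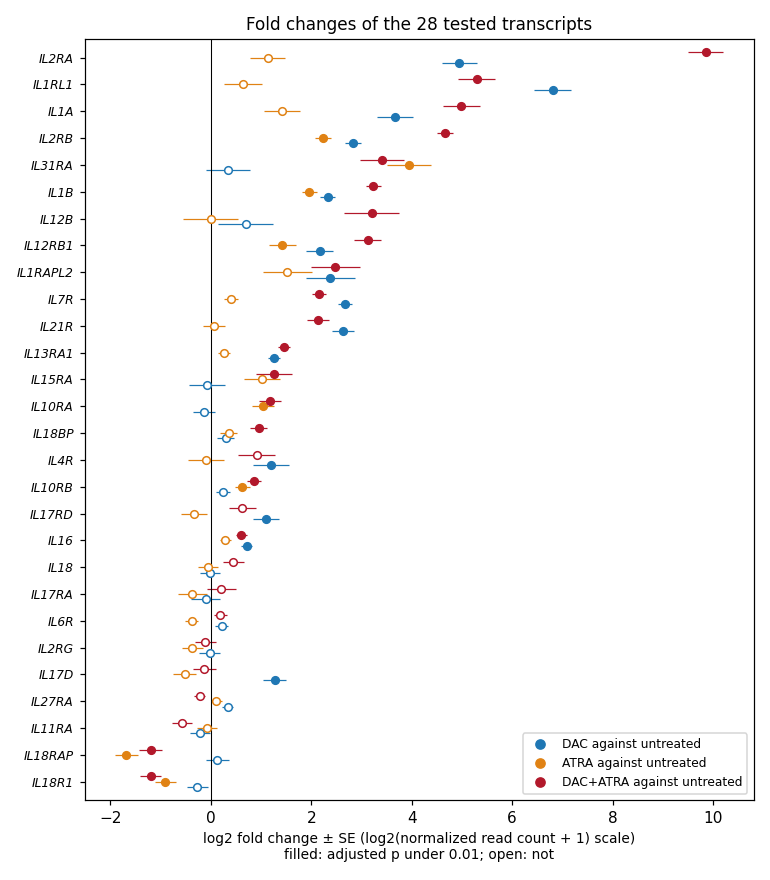
Log2 fold changes against untreated cells of the 28 tested transcripts, ordered by their value with DAC + ATRA, with DAC in blue, ATRA in orange and DAC + ATRA in red. Points are limma estimates from 3 libraries per group, bars are SEs and filled points have an adjusted p under 0.01. IL2RA lies farthest to the right at 9.85 with DAC + ATRA, and IL18RAP and IL18R1 lie to the left with ATRA and with DAC + ATRA; for IL1RL1, IL2RA, IL12B, IL31RA and IL1RAPL2, with at most 4 reads in untreated cells, the plotted value depends on the pseudocount.

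The promoters of these genes differed in their CpG content, the dinucleotide whose methylation is lost under DAC. RefSeq promoter windows (GRCh38.p14, 250 bases before to 50 after the start) were available for 69 of the 85 symbols and for 24 of the 28 tested. The tested members had a median of 8.5 CpGs per window, from 0 to 42, and all 35116 promoters had a median of 14. The median was 8 for the 13 members that rose with DAC and 9 for the 11 that were not called. For 9 of the 24, IL4R, IL1RL1, IL21R, IL15RA and IL12RB1 among them, the counted transcript starts more than 1000 bases from the RefSeq start, so the window is not that of the counted transcript. Among the other 15, the medians were 8 for the 7 that rose with DAC and 17 for the 8 that were not called. Of the following 250 bases before the start, the first belongs to IL2RA, the member with the highest fold change, the next 2 to the other members with a called interaction of DAC and ATRA, and the last to a CpG-rich member that also rose with DAC. They are written 5′ to 3′ on the gene's strand with each CG in capitals, and in all 4 the counted transcript begins at the RefSeq start.
IL2RA (chr10:6062368-6062617, minus strand): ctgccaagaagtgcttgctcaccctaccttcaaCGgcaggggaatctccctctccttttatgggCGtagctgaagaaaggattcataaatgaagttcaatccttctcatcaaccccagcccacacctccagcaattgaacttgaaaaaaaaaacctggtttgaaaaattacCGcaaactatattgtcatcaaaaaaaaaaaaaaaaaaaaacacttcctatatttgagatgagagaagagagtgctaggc
IL1B (chr2:112836780-112837029, minus strand): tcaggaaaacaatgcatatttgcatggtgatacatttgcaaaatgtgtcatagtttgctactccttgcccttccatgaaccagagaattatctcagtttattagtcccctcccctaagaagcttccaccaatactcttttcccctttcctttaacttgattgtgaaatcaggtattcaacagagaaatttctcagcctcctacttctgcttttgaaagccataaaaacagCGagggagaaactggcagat
IL7R (chr5:35856641-35856890, plus strand): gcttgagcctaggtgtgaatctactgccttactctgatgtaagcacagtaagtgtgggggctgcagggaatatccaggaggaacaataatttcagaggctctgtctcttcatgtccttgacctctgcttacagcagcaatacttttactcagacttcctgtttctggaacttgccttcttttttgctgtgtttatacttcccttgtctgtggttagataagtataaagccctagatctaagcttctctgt
IL13RA1 (chrX:118727356-118727605, plus strand): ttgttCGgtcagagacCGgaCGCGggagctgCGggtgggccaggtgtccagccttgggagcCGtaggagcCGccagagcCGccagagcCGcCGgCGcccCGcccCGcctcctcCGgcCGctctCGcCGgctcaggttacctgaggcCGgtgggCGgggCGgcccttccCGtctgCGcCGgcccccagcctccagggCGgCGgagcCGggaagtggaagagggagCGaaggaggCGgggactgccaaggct
The stretches hold 3 CpGs in IL2RA, 1 in IL1B, 0 in IL7R and 28 in IL13RA1. No methylation was measured in these libraries, so the counts describe the sequence alone.

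Motifs of factors known from interleukin and retinoid signalling were looked for in the same windows on both strands, with the same limit for these 9 members. The STAT motif TTCNNNGAA occurred in 7.66% of all promoters and in 4 of the 24 tested members, IL10RB, IL15RA, IL17D and IL1B. The core of the interferon-stimulated response element (ISRE) occurred in 3.57% of all and in IL18RAP. Of the retinoid half-sites, AGTTCA was present in 10.4% of all promoters and in IL10RA, IL12B and IL2RA, and GGTCA in 37.4% and in 7 members. Matches of different motifs may overlap, and a match describes the letters and not a bound site.

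Among the ligands, IL1A and IL1B rose with DAC and with DAC + ATRA, and IL1B also with ATRA. IL1A and IL1B code for the related cytokines IL1α and IL1β, and lie near each other on chromosome 2 (hg38, chr2:112773925-112784493 and chr2:112829751-112836779). For IL1A, the normalized read counts were 2.76, 8.19 and 1.85 in untreated cells, 54, 59.4 and 59.8 with DAC, 16.9, 14.6 and 5.83 with ATRA, and 135, 153 and 151 with both agents. Every DAC library was above the untreated ones and every DAC + ATRA library was above all others, while the ATRA libraries overlapped with the untreated ones. IL1A rose by 3.67 (SE 0.36, adjusted p = 3.11e-08) with DAC and by 4.99 (SE 0.36, adjusted p = 1.6e-10) with DAC + ATRA, and its 1.42 with ATRA missed the threshold (adjusted p = 0.011). Its difference of 1.32 between DAC + ATRA and DAC was not called either (adjusted p = 0.0154). IL1A passed the filter only through treated libraries, which favoured its calls against untreated cells.

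IL1B was counted at 70.8, 54.6 and 61.9 in untreated cells, 325, 305 and 322 with DAC, 286, 274 and 186 with ATRA, and 554, 620 and 604 with both agents. All treated libraries exceeded the untreated ones, the DAC and ATRA groups lay near each other, and the DAC + ATRA libraries stood above both. The log2 fold change was 2.33 (SE 0.15, adjusted p = 1.48e-12) with DAC, 1.96 (adjusted p = 1.89e-10) with ATRA and 3.23 (adjusted p = 1.43e-15) with DAC + ATRA. The combination was higher than DAC by 0.90 (adjusted p = 8.22e-05) and higher than ATRA by 1.27 (adjusted p = 1.07e-07).

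IL12B, the p40 subunit shared by IL12 and IL23, passed the filter only through its 3 DAC + ATRA libraries, so that a higher level there was a condition of its being tested. Its normalized read counts were 2.76, 0 and 0 in untreated cells, 0, 2.92 and 2.99 with DAC, 1.06, 0 and 0.832 with ATRA, and 15.4, 13.7 and 11.1 with both agents. The 3 combination libraries were the only ones above 10, and the other groups overlapped with each other. On 39 reads against 3, the level with DAC + ATRA was 14.8 times that of untreated cells, with a 95% counting interval of 4.72 to 75.0 that covers counting error only. IL12B is among the members counted as higher with DAC + ATRA, and nothing is read from its calls. Of the partner subunits, IL23A (p19) stayed under the filter with a mean of 5.81 ± 1.4 (SD, n = 3) in untreated cells and 15.6 ± 6.93 with DAC + ATRA, and IL12A (p35) had at most 2 reads in any group.

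Of the other ligands, IL16 and IL17D rose with DAC. The counts for IL16, a chemoattractant ligand of CD4, ran from 645 to 674 in untreated cells, 1047 to 1092 with DAC, 696 to 882 with ATRA and 969 to 1063 with both agents. Its log2 fold change was 0.71 (SE 0.11, adjusted p = 5.19e-06) with DAC and 0.61 (adjusted p = 2.9e-05) with DAC + ATRA, and the counted row shares all its bases with other transcripts of the table. IL17D, a member of the IL17 family, was counted at 55.1, 51 and 53.6 in untreated cells, 84.3, 168 and 153 with DAC, 45.4, 36.4 and 30 with ATRA, and 44.3, 60 and 43.3 with both agents. The DAC libraries lay above all others, and in them the lowest and highest value differed more than in any other group. It rose by 1.27 (SE 0.23, adjusted p = 5.22e-05) with DAC, but was lower with DAC + ATRA than with DAC by 1.39 (log2 fold change -1.39, adjusted p = 6.11e-05). IL18, counted on a retained-intron transcript, had means of 51.7 ± 11.5, 50.5 ± 3.52, 49.4 ± 10 and 70.2 ± 9.61 (SD, n = 3) in the untreated, DAC, ATRA and DAC + ATRA groups, and was not called in any comparison.

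The other 34 ligands were under the filter. Of these, IL13 and IL23A had at least 3 reads in all 3 libraries of a group, with IL13 between 1.95 and 15.8 over the 12 libraries. IL6 and IL10, prominent cytokines of activated monocytes, had 11 and 6 reads over the 12 libraries. IL2, IL4, IL7, IL21 and IL33 were listed at 0. The sequence left to count was short for some of them, since 12 of the 24 members listed at 0 have under 100 bases that no other transcript of the table covers, IL4, IL7 and IL33 among them.

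The highest fold change belonged to IL2RA, the alpha chain (CD25) that raises the affinity of the IL2 receptor (hg38, chr10:6010689-6062367, minus strand; its CpG-poor promoter is printed above). Its normalized read counts were 1.84, 0 and 0.924 in untreated cells, 50.8, 56.5 and 52.8 with DAC, 1.06, 3.64 and 4.99 with ATRA, and 1469, 1765 and 1666 with both agents. It was close to absent in untreated cells and with ATRA, moderate with DAC and at least 1469 in each combination library, and the DAC and DAC + ATRA groups overlapped with no other. With 158 reads against 3, the level with DAC was 58.3 times that of untreated cells (95% counting interval 19.6 to 286). With DAC + ATRA there were 4650 reads, a ratio of 1770 (605 to 8580). The ratio of the means of DAC + ATRA and DAC was 30.6, and the difference was 4.91 on the log2 scale (SE 0.35, adjusted p = 5.97e-10), with an adjusted p of 0.0102 at a pseudocount of 0.1. The 11 reads with ATRA were 3.69 times the untreated level, with an interval that includes no change (0.975 to 20.6).

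IL2RB, the beta chain of the IL2 and IL15 receptors, was counted at 24.8, 25.5 and 35.1 in untreated cells, 170, 249 and 208 with DAC, 134, 147 and 127 with ATRA, and 652, 854 and 716 with both agents. Here both agents alone were above untreated cells, and the combination was above both, with no overlap between untreated, single-agent and combination libraries. It rose by 2.83 with DAC, 2.23 with ATRA and 4.66 with both agents (SE 0.16 for each, adjusted p = 1.9e-13, 8.76e-11 and 4.78e-18). DAC + ATRA exceeded DAC by 1.83 (adjusted p = 5.39e-09) and ATRA by 2.43 (adjusted p = 4.87e-12). Only 92 of the 4034 bases of the counted IL2RB transcript are not shared with another row. The gamma chain IL2RG did not follow, with 35.8, 38.2 and 45.3 in untreated cells, 38.9, 37 and 40.8 with DAC, 26.4, 36.4 and 29.1 with ATRA, and 37.1, 43.2 and 30.9 with both agents. Each treated group overlapped with untreated cells, while every ATRA library lay just below every DAC library. The log2 fold change of IL2RG with DAC + ATRA was -0.11 (SE 0.21, adjusted p = 0.698), again on a retained-intron transcript.

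**Figure D2:**
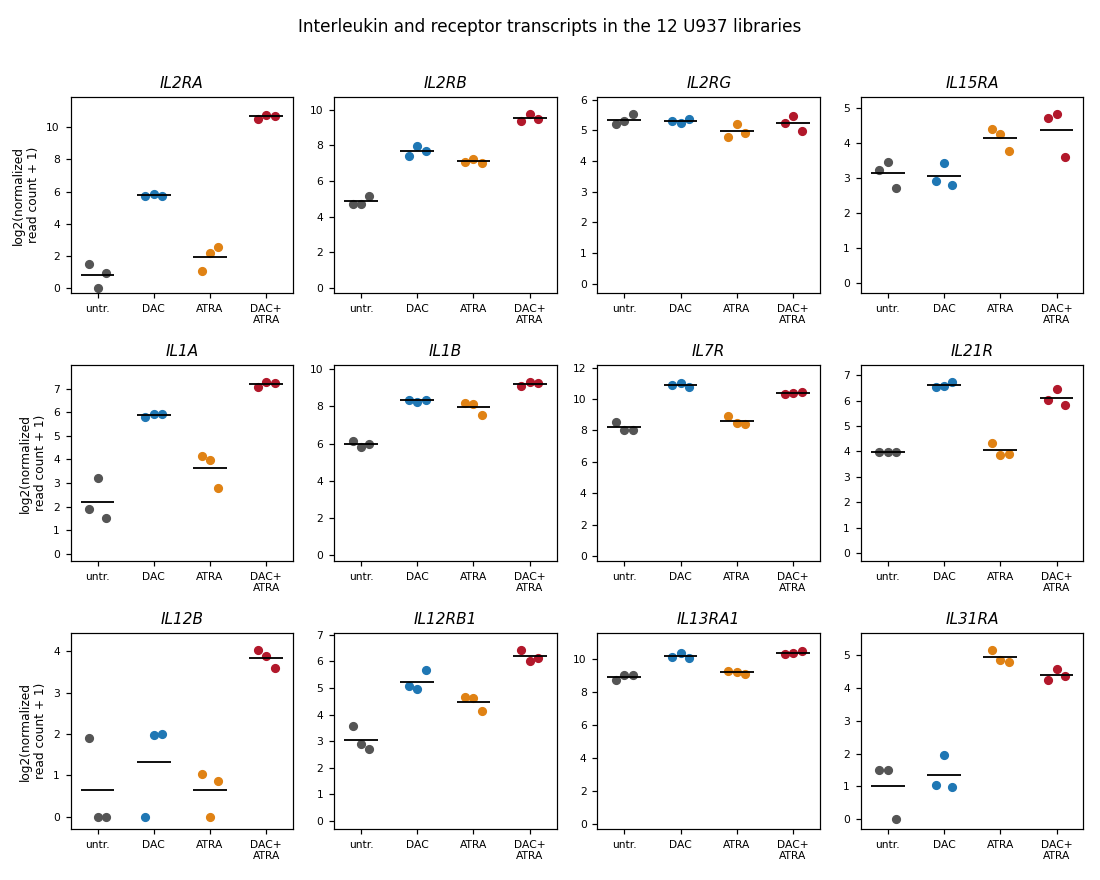
Levels of 12 interleukin and receptor transcripts on the log2(normalized read count + 1) scale, with 1 point per library, 3 libraries per group and a line at the group mean of the log2 values; each panel has its own vertical axis. IL2RA, IL2RB, IL1A, IL1B, IL12B and IL12RB1 are highest with DAC + ATRA in all 3 libraries, IL7R and IL21R are highest with DAC, and each treated group of IL2RG overlaps with untreated cells.

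IL15RA, whose gene neighbours IL2RA on chromosome 10, had counts of 8.27, 10 and 5.54 in untreated cells, 6.49, 9.74 and 5.98 with DAC, 20.1, 18.2 and 12.5 with ATRA, and 25.3, 27.4 and 11.1 with both agents. The ATRA and untreated groups did not overlap, and 1 of the combination libraries lay near the untreated range. It was called with DAC + ATRA (1.25, SE 0.36, adjusted p = 0.00529) and not with ATRA (1.01, adjusted p = 0.0765). The counted IL15RA row is a transcript of 659 bases that held 56.5% of the reads of the gene. Without untreated library 1 or 3, or DAC + ATRA library 10 or 11, the adjusted p was 0.0113 to 0.0435, and with scaling to library size it was 0.0117.

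IL7R and IL21R had their highest counts with DAC alone. IL7R, the alpha chain of the IL7 receptor, was counted at 369, 266 and 260 in untreated cells, 1879, 2113 and 1722 with DAC, 475, 355 and 346 with ATRA, and 1251, 1319 and 1395 with both agents. Both DAC-treated groups were above untreated and ATRA-treated cells, and every combination library was below every DAC library. The log2 fold change was 2.68 (SE 0.14, adjusted p = 1.62e-14) with DAC, 0.40 (adjusted p = 0.0628) with ATRA and 2.16 (adjusted p = 8.77e-13) with DAC + ATRA. The difference of -0.52 between DAC + ATRA and DAC had an adjusted p of 0.00912, and 0.0109 to 0.057 when untreated library 2 or any 1 of the DAC or DAC + ATRA libraries was left out. With a pseudocount of 0.1 it was 0.0149 and with protein-coding transcripts only 0.011. IL21R, the specific chain of the IL21 receptor, showed 14.7, 14.6 and 14.8 in untreated cells, 91.9, 94.5 and 104 with DAC, 19, 13.7 and 14.1 with ATRA, and 64.2, 87.4 and 55.6 with both agents. All libraries given DAC, alone or in combination, were above the other 6, which overlapped. IL21R rose by 2.64 with DAC (SE 0.22, adjusted p = 2.33e-10) and by 2.13 with DAC + ATRA (adjusted p = 7.51e-09). Its value with ATRA was 0.07 (adjusted p = 0.911), and its difference of -0.5 between DAC + ATRA and DAC was not called (adjusted p = 0.141).

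Many of these receptors are known from lymphocytes, so lymphocyte markers were read beside them. Of 5 T cell markers, CD2 alone reached a group mean of 10, with 5.52 in untreated cells, 349 with DAC, 5.92 with ATRA and 141 with both agents. The defining markers CD3D, CD3E, CD3G and TRAC had group means of 0 to 7.39, and the list summed to 2.76 to 10.2, 298 to 391, 4.55 to 9.5 and 135 to 179 in the 4 groups. Of 5 B cell markers, CD79A had means of 131, 513, 314 and 1336, PAX5 had 373, 376, 328 and 366, and MS4A1 was at most 1.31. The B cell list summed to 485 to 557, 878 to 940, 504 to 721 and 1656 to 1783. The NK cell list stayed between 10 and 24.4. The means of CD2 were higher in the 2 groups given DAC, in which IL2RA, IL2RB, IL7R and IL21R rose, and those of CD79A in all 3 treated groups. Their part in these results was not tested.

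Both chains of the receptor that IL4 and IL13 share rose with DAC. IL13RA1, which pairs with IL4R, was counted at 418, 512 and 526 in untreated cells, 1117, 1308 and 1039 with DAC, 608, 590 and 546 with ATRA, and 1236, 1313 and 1442 with both agents. The 2 groups given DAC lay above the other 2 without overlap, and DAC and DAC + ATRA overlapped. Its log2 fold change was 1.25 (SE 0.12, adjusted p = 2.03e-09) with DAC and 1.46 (adjusted p = 8.27e-11) with DAC + ATRA, against 0.26 (adjusted p = 0.169) with ATRA. IL4R was represented by a short transcript that held 39.2% of the reads of the gene, with 6.43, 5.46 and 11.1 in untreated cells, 21.6, 17.5 and 15.9 with DAC, 6.34, 4.55 and 10.8 with ATRA, and 14.5, 12.6 and 17.3 with both agents. The DAC libraries lay above the untreated ones and overlapped with DAC + ATRA. IL4R rose by 1.2 with DAC (SE 0.36, adjusted p = 0.00743), a call that was lost with DESeq2 (adjusted p = 0.0271), with scaling to library size (0.0184) and with no filter (0.0151), and without untreated library 1 or 2, any of the 3 DAC libraries or DAC + ATRA library 10 (adjusted p 0.0104 to 0.0409).

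In the IL1 receptor cluster on chromosome 2, IL1RL1 rose with DAC, and IL18R1 and IL18RAP fell with ATRA. IL1RL1 (ST2), the receptor of IL33 (hg38, chr2:102311563-102352037, plus strand), was counted at 0, 0 and 0 in untreated cells, 121, 108 and 105 with DAC, 1.06, 0 and 0.832 with ATRA, and 41.6, 33.7 and 39.5 with both agents. It was at most 1.06 outside the groups given DAC, and higher in each DAC library than in each combination library. With 328 reads against 0, IL1RL1 was at least 121-fold higher with DAC than in untreated cells, and with 110 reads it was at least 41.8-fold higher with DAC + ATRA, both against a floor of 3 reads over the group. Its mean with DAC + ATRA was 0.344 of that with DAC. This log2 difference of -1.52 (SE 0.37) had an adjusted p of 0.00512, which was 0.0189 to 0.034 when any 1 DAC or DAC + ATRA library was left out, 0.266 with a pseudocount of 0.1 and 0.0127 without a filter.

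IL1R1, the receptor of IL1A and IL1B, lies in the same cluster before IL1RL2 and IL1RL1 and remained under the filter. It had 0 reads in untreated and ATRA-treated cells and 5.4, 4.87 and 3.98 normalized reads with DAC, which is at least 5.16-fold higher. With DAC + ATRA the values were 1.81, 3.16 and 2.47. IL1RAP, the shared accessory chain, was counted on a transcript without a defined coding sequence, with 1.06 to 10.8 over the 12 libraries.

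IL18R1 and IL18RAP, the 2 chains of the IL18 receptor, lie next in the same cluster (chr2:102355929-102398758 and chr2:102418689-102452565). IL18RAP was counted at 91.9, 71 and 60 in untreated cells, 81.1, 61.4 and 103 with DAC, 21.1, 25.5 and 20 with ATRA, and 41.6, 31.6 and 23.5 with both agents. The untreated and DAC groups overlapped, and both groups given ATRA lay below them. IL18RAP fell by 1.68 (log2 fold change -1.68, SE 0.23, adjusted p = 7.6e-06) with ATRA and by 1.2 (-1.2, adjusted p = 0.000129) with DAC + ATRA. The counts for IL18R1 were 71.7, 77.4 and 58.2 in untreated cells, 64.9, 42.9 and 65.7 with DAC, 37, 39.1 and 32.5 with ATRA, and 27.1, 32.6 and 28.4 with both agents. Both groups given ATRA lay below the other 2 here as well, with log2 fold changes of -0.91 (adjusted p = 0.00353) with ATRA and -1.2 (adjusted p = 2.76e-05) with DAC + ATRA. The call with ATRA was lost without untreated library 1 or 2 or ATRA library 7 or 9 (adjusted p 0.011 to 0.0319), and the counted IL18R1 row shares all its bases with other rows. Against DAC, the combination was lower by 1.32 for IL18RAP (-1.32, adjusted p = 0.000195) and by 0.93 for IL18R1 (-0.93, adjusted p = 0.00233). This last call was lost without DAC library 4 or 6 or DAC + ATRA library 10 or 12 (adjusted p 0.0121 to 0.0203).

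**Figure D3:**
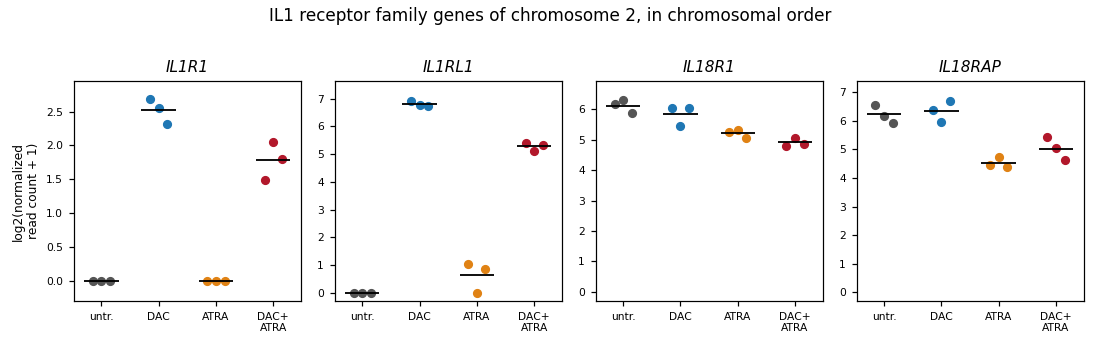
Levels of the 4 members of the IL1 receptor cluster with at least 3 reads in all libraries of a group, in their order along chromosome 2, on the log2(normalized read count + 1) scale with 1 point per library and a line at the group mean. IL1R1 and IL1RL1 appear in the 2 groups given DAC, while IL18R1 and IL18RAP are lower in the 2 groups given ATRA.

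IL1RAPL2, an IL1 receptor-like protein of the X chromosome, had counts of 0.919, 2.73 and 0 in untreated cells, 6.49, 12.7 and 8.96 with DAC, 9.5, 2.73 and 3.33 with ATRA, and 11.8, 6.32 and 12.4 with both agents. All DAC and all DAC + ATRA libraries were above the untreated ones, while the ATRA libraries overlapped with the untreated ones. It rose by 2.38 with DAC (SE 0.49, adjusted p = 0.000292) and by 2.48 with DAC + ATRA (adjusted p = 0.000144), on 77 reads over the 12 libraries. IL1RAPL2 passed the filter only through DAC library 5 and DAC + ATRA libraries 10 and 12, so its selection favoured these calls and nothing is read from them.

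Among the receptor chains of the IL6 and IL12 type, IL12RB1 and IL31RA rose. IL12RB1, the chain that the IL12 and IL23 receptors share, was counted at 11, 6.37 and 5.54 in untreated cells, 32.4, 30.2 and 49.8 with DAC, 24.3, 23.7 and 16.6 with ATRA, and 84.1, 64.2 and 68 with both agents. Each treated group was above untreated cells and the combination was above all others. The log2 fold change was 2.17 (SE 0.27, adjusted p = 3.04e-07) with DAC, 1.42 (adjusted p = 0.000544) with ATRA and 3.12 (adjusted p = 3.83e-10) with DAC + ATRA. The combination exceeded ATRA by 1.71 (adjusted p = 1.24e-05), while its difference of 0.95 from DAC was not called (adjusted p = 0.0172). With only the untreated and ATRA libraries in the fit, the adjusted p of IL12RB1 with ATRA was 0.0108. The second chain of the IL12 receptor, IL12RB2, was listed at 0 on a row without bases of its own.

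IL31RA, a chain of the IL31 receptor related to gp130, was called with ATRA and not with DAC. Its counts were 1.84, 1.82 and 0 in untreated cells, 1.08, 2.92 and 0.996 with DAC, 34.8, 28.2 and 26.6 with ATRA, and 18.1, 23.2 and 19.8 with both agents. The 2 groups given ATRA were separate from the 2 without it, and the DAC libraries overlapped with the untreated ones. It rose by 3.94 (SE 0.44, adjusted p = 1.86e-07) with ATRA and by 3.41 (adjusted p = 3.12e-07) with DAC + ATRA, against 0.34 (adjusted p = 0.546) with DAC. With 4 reads in untreated cells these values depend on the pseudocount, and the ratios of the mean normalized counts were 24.5 with ATRA and 16.7 with DAC + ATRA. IL31RA passed the filter only through the 2 groups given ATRA, so its selection favoured these calls. Its lower level with DAC + ATRA than with ATRA alone was not called (-0.53, adjusted p = 0.353).

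IL27RA and IL6R were not called against untreated cells. IL27RA, the specific chain of the IL27 receptor, had means of 1834 ± 88.7, 2322 ± 196, 1993 ± 302 and 1576 ± 66.3 (SD, n = 3) in untreated, DAC, ATRA and DAC + ATRA cells, and was lower with the combination than with DAC (-0.56, SE 0.11, adjusted p = 0.000552). IL6R had means of 1190 ± 171, 1386 ± 142, 921 ± 169 and 1352 ± 72.7, and was higher with the combination than with ATRA (0.57, SE 0.13, adjusted p = 0.000776). Its partner chain IL6ST (gp130) had at most 1.82 normalized reads in any library, on a row with 85 bases of its own. IL11RA was also not called against untreated cells, and its log2 fold change with DAC + ATRA was -0.57 (SE 0.20, adjusted p = 0.0202).

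Both chains of the IL10 receptor rose with ATRA. IL10RA, the ligand-binding chain, was counted on a retained-intron transcript at 19.3, 23.7 and 28.6 in untreated cells, 23.8, 21.4 and 18.9 with DAC, 38, 58.3 and 54.1 with ATRA, and 57, 55.8 and 50.7 with both agents. The 2 groups given ATRA lay above the other 2 without overlap. It rose by 1.03 (SE 0.22, adjusted p = 0.00212) with ATRA and by 1.17 (adjusted p = 9.68e-05) with DAC + ATRA, and the first call was lost without untreated library 1 or ATRA library 8 (adjusted p 0.0184 to 0.0214). IL10RB, which also serves in the receptors for IL22 and the type III interferons, ran from 87.7 to 107 in untreated cells, 115 to 122 with DAC, 145 to 161 with ATRA and 166 to 194 with both agents. Its log2 fold change was 0.63 (SE 0.14, adjusted p = 0.00295) with ATRA and 0.86 (adjusted p = 1.19e-05) with DAC + ATRA. With ATRA it lost the call without untreated library 3 or ATRA library 7 (adjusted p 0.0141 to 0.0331), without a filter (0.018) and with only the 2 groups in the fit (0.0134). The combination exceeded DAC by 0.61 for IL10RB (adjusted p = 0.00309), which was lost without DAC library 5 or DAC + ATRA library 11 or 12 (adjusted p 0.0138 to 0.0229) and without a filter (0.0188), and by 1.31 for IL10RA (adjusted p = 0.000123).

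Of the IL17 receptor chains, IL17RD, an inhibitor of growth factor signalling as well as an IL17 receptor, was counted at 14.7, 14.6 and 14.8 in untreated cells, 32.4, 32.1 and 32.9 with DAC, 12.7, 10.9 and 10.8 with ATRA, and 19, 22.1 and 29.7 with both agents. The DAC libraries were the highest and lay within a narrow range. IL17RD rose by 1.09 (SE 0.26, adjusted p = 0.00105) with DAC, and its 0.63 with DAC + ATRA was not called (adjusted p = 0.0424). The difference of 0.96 between DAC + ATRA and ATRA (adjusted p = 0.00379) was lost with DESeq2 (adjusted p = 0.0261), without a filter (0.0223), with only the 2 groups in the fit (0.0132), and without ATRA library 8 or 9 or DAC + ATRA library 11 or 12 (adjusted p 0.0104 to 0.034). IL17RA, the chain common to the IL17 receptors, was between 11 and 23.4 over the 12 libraries on a retained-intron transcript and was not called. IL17RE remained under the filter with a mean of 2.75 ± 0.897 in untreated cells, 12.7 ± 5.16 with DAC, 0.555 ± 0.961 with ATRA and 4.62 ± 1.51 with both agents (SD, n = 3).

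IL22RA1 and IL5RA were the remaining receptors under the filter with at least 3 reads in all 3 libraries of a group. IL22RA1, the signalling chain of the IL22 receptor, had 0 reads in untreated and ATRA-treated cells and 13.0, 8.77 and 9.96 normalized reads with DAC, at least 11.4-fold higher. IL5RA had means of 3.05 ± 2.28 in untreated cells and 7.28 ± 1.12 with DAC + ATRA. IL3RA, the IL3 receptor chain, was listed at 0.

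The antagonists were led by IL18BP, a soluble protein that binds and neutralizes IL18. It was counted at 68, 83.7 and 91.4 in untreated cells, 84.3, 96.4 and 121 with DAC, 112, 94.7 and 105 with ATRA, and 165, 136 and 171 with both agents. All combination libraries were above the other 9, and the DAC libraries overlapped with the untreated ones. IL18BP rose by 0.95 (SE 0.17, adjusted p = 3.33e-05) with DAC + ATRA, while its 0.30 with DAC (adjusted p = 0.145) and 0.36 with ATRA (adjusted p = 0.194) were not called. The combination was called above DAC (0.65, adjusted p = 0.00806) and above ATRA (0.59, adjusted p = 0.00616). Scaling to library size (adjusted p = 0.0176 and 0.026) and no filter (0.019 and 0.017) ended both of these calls, and a pseudocount of 0.1 ended the first (0.011). So did leaving out DAC + ATRA library 10 or 12 or a library of the compared single-agent group (DAC library 4 or 5, ATRA library 8 or 9), and for DAC also untreated library 2 (adjusted p 0.0108 to 0.0595). IL22RA2, the soluble decoy of IL22, had 16 reads with DAC and 3, 0 and 1 in the untreated, ATRA and DAC + ATRA groups. The IL1 antagonists IL1RN and IL1R2 had 2 reads each over the 12 libraries.

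Set against the single agents, DAC + ATRA was called higher for some members and lower for others relative to DAC, and higher relative to ATRA. Against DAC, 8 members were higher and 6 were lower, beside 5.18% and 3.59% of all transcripts (8.77% in either direction). Against ATRA, 13 were higher and 0 were lower, beside 19.1% and 10.2% (29.4% in either direction). IL12B is among the higher members of both comparisons, and a higher level with DAC + ATRA was a condition of its being tested. With edgeR under TMM, with scaling to library size, at a threshold of 0.05, and without ATRA library 8 or 9, 1 member was also called lower than with ATRA, and with no filter 2 were. The count of 14 against DAC was 9 without DAC library 4, DAC + ATRA library 10 or DAC + ATRA library 12. Over all transcripts, the calls then fell as well, from 1699 of 19373 to 1231 of 19109, 1088 of 18980 and 1096 of 18956. Every DAC + ATRA library was above all 9 other libraries for 8 members, IL10RB, IL12B, IL12RB1, IL18BP, IL1A, IL1B, IL2RA and IL2RB, and for 8.72% of all transcripts tested. For IL12B the filter had fixed this, which leaves 7 members. An exact two-sided permutation test of 3 libraries against 3 cannot give a p below 0.1, which it gave for each pair of groups without overlap.

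Whether the 2 agents added up was tested as the DAC × ATRA interaction, a value of 0 meaning that the combination equals the sum of both agents' log2 fold changes. It was called for 3 of the 28 members, 1 above and 2 below 0, beside 0.527% and 0.986% of all transcripts (1.51% in either direction). The latter share was 2.99% without ATRA library 9 and 0.854%, 1.0% and 0.839% without DAC + ATRA library 10, 11 and 12. For IL2RA, the combination exceeded the sum by 3.78 (SE 0.49, adjusted p = 4.09e-05). With 3 reads of IL2RA in untreated cells, this value varied with the handling of low counts. It was 3.05 with DESeq2 (adjusted p = 0.0374), 3.19 and 3.18 with edgeR under TMM and under DESeq2's size factors (adjusted p = 0.159 and 0.164), and 2.67 with a pseudocount of 0.1 (adjusted p = 0.459). The sign was positive in each of these, and leaving out 1 library gave 3.32 to 4.19. On the linear scale, the mean of IL2RA with DAC + ATRA lay 1578 normalized reads above what the rises with each agent add up to (SE 87.1, and 1510 to 1660 when 1 library was left out).

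For IL1B and IL7R the interaction was below 0, at -1.06 (SE 0.21, adjusted p = 0.00308) and -0.92 (SE 0.19, adjusted p = 0.00549). DESeq2 and both edgeR fits called both of them. Without 1 library, however, the IL1B call was lost in 7 of 12 cases, namely untreated library 2, DAC library 4 or 6, ATRA library 7 or 8, and DAC + ATRA library 10 or 12 (-1.07 to -0.95, adjusted p 0.0102 to 0.0215). The IL7R call was lost in 8 cases, with untreated library 2 or 3, DAC library 4 or 5, ATRA library 7, or any DAC + ATRA library left out (-0.96 to -0.77, adjusted p 0.0145 to 0.0322), and with a pseudocount of 0.1 (adjusted p = 0.012). The sign for IL1B depends on the scale, because on the linear scale its mean with DAC + ATRA lay 89.3 normalized reads above the summed rises (SE 38.2, and 57.8 to 109 without 1 library). For IL7R it lay below that sum on the linear scale as well (-677, SE 133). IL2RB showed no called interaction on the log2 scale (-0.40, SE 0.23, adjusted p = 0.449), whereas its linear excess was 424 normalized reads (SE 64.2). The values for IL27RA (-0.67, adjusted p = 0.012) and IL1RL1 (-2.16, adjusted p = 0.0181) missed the threshold. That of IL1RL1, with 0 reads in untreated cells and 2 with ATRA, depends on the pseudocount and is no measured size. IL27RA was called with DESeq2 (-0.68, adjusted p = 0.00214), with both edgeR fits, with scaling to library size and without a filter, as well as without DAC library 5 or ATRA library 9. In the DESeq2 and edgeR fits 3 members were thus called below 0 and 0 above.

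**Figure D4:**
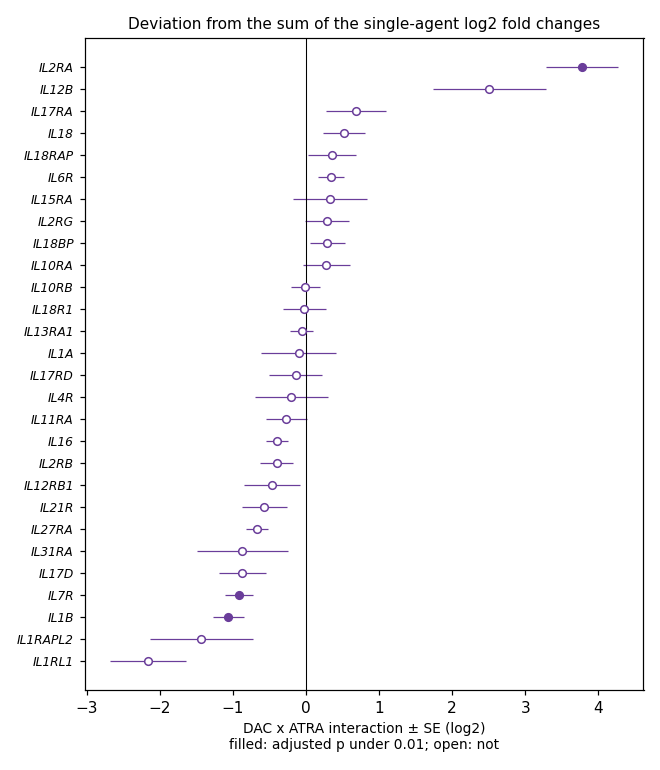
DAC × ATRA interaction of the 28 tested members on the log2 scale, ordered by value, with SE bars and filled points for an adjusted p under 0.01. IL2RA stands at 3.78 above 0, IL1B and IL7R are filled at -1.06 and -0.92, and the plotted value of IL1RL1, -2.16 with a wide bar, depends on the pseudocount.

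Related genes that do not carry the IL name were counted from 4 lists. Of 11 ligands of the same cytokine families, 6 were tested, and 5 rose with DAC, 2 with ATRA and 5 with both agents, with a median log2 fold change of 2.10 for the combination, where 22.2%, 5.11% and 25.5% of all transcripts were called higher. CSF2 (GM-CSF) was the highest, with 0 reads in untreated cells and means of 165 ± 47.9 with DAC, 3.83 ± 2.3 with ATRA and 175 ± 36.5 with both agents (SD, n = 3), at least 188-fold higher in the latter. CLCF1 was the lowest at 0.18 (adjusted p = 0.581), although it rose by 1.30 with DAC (adjusted p = 0.000214). Of 10 receptors, 5 were tested, and 2 rose and 1 fell with DAC, 1 rose with ATRA and 4 rose with DAC + ATRA, with a median of 1.37, beside 33.5%, 6.97% and 41.6% of all transcripts called in either direction. CXCR1, a receptor for CXCL8 (IL8), was listed at 0 in untreated cells and reached 61.0 ± 7.44 with DAC + ATRA, at least 66.6-fold higher. CSF3R was the lowest at -0.64 (adjusted p = 0.0485), and it fell by 1.42 with DAC (-1.42, adjusted p = 0.000372). In these 2 lists the interaction was called above 0 for CXCR1 (2.96, adjusted p = 0.00302), and below 0 for CSF2 (-2.05, adjusted p = 0.00942) and for OSM, a cytokine of the IL6 family (-1.42, adjusted p = 0.00294). For CXCR1 and CSF2, with 0 reads in untreated cells, the fitted size of the interaction is no bound. CXCR1 is among the receptors counted as higher, but it passed the filter only through its 3 DAC + ATRA libraries, so nothing is read from its calls. CSF2 and LIF passed only through the groups given DAC, which favoured their being counted as higher there.

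Of 15 kinases and adaptors downstream of the receptors, 13 were tested. With DAC 5 rose, with ATRA 1 rose, and with DAC + ATRA 7 rose and 2 fell, with a median of 0.64 for the combination. Against the shares called over all transcripts in either direction (33.5%, 6.97% and 41.6%), those of this list with DAC and with ATRA were near the background. IRAK2, a kinase of IL1 receptor signalling, was the highest with means of 365 ± 16.5 in untreated cells, 540 ± 81.0 with DAC, 1183 ± 172 with ATRA and 2594 ± 224 with both agents (2.82, SE 0.12, adjusted p = 4.4e-16). TAB1 was the lowest and fell by 0.37 (-0.37, adjusted p = 0.00483). JAK3, the kinase that binds IL2RG and was picked out after its values were seen, rose by 1.37 with DAC (adjusted p = 8.28e-11) and by 1.43 with DAC + ATRA (adjusted p = 2.48e-11). Of 11 genes for the maturation of IL1B and IL18, 5 were tested, and 1 rose and 1 fell with DAC, none was called with ATRA (0 in either direction), and 2 rose and 1 fell with DAC + ATRA, with a median of 0.03. NLRP1, an inflammasome sensor, was the highest at 2.99 (SE 0.49, adjusted p = 1.46e-05), and CARD8 the lowest at -1.39 (SE 0.18, adjusted p = 2.54e-07). NLRP1 passed the filter only through the groups given DAC, which favoured its calls. CASP1, the protease that cleaves both cytokines, was also picked after the fact and rose by 0.72 with DAC + ATRA (adjusted p = 0.00734). Its untreated libraries (95.6, 51.9 and 67.4) overlapped with those given both agents (90.4, 134 and 125).

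**Figure D5:**
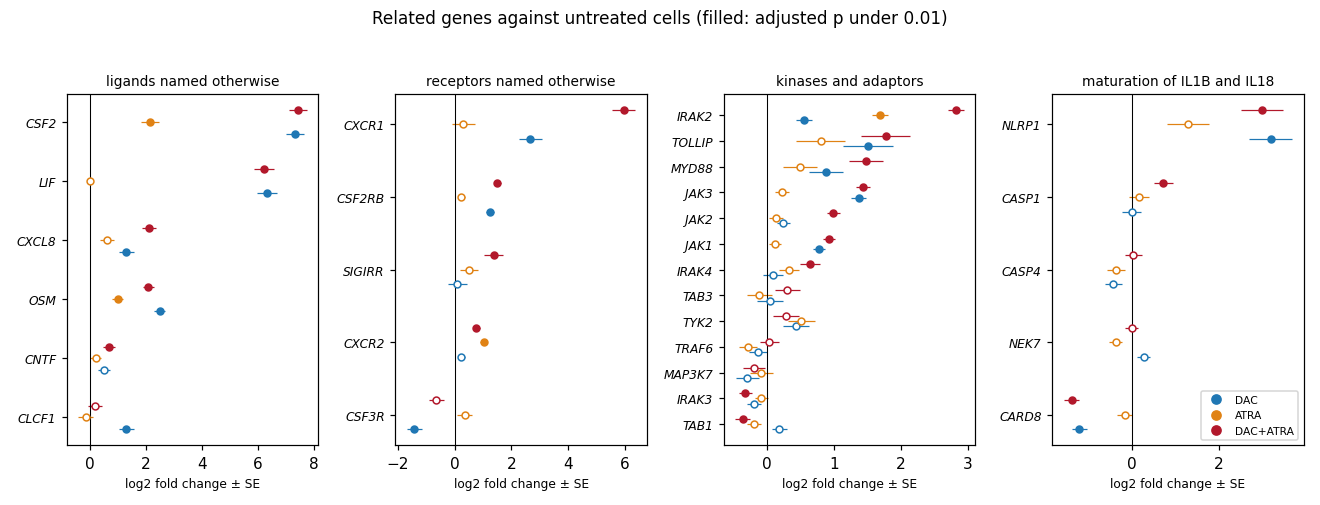
Log2 fold changes against untreated cells of the tested genes of 4 lists, with DAC in blue, ATRA in orange and DAC + ATRA in red, SE bars and filled points for an adjusted p under 0.01; each panel has its own horizontal axis. CSF2, LIF and CXCR1 were listed at 0 in untreated cells, so their plotted values are not bounds. IRAK2 is filled in all 3 comparisons, and CARD8 lies to the left of 0 with DAC and with DAC + ATRA.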

How the data were processed

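RNA-sequencing of 12 U937 libraries, 3 per group, was read from 1 deposited table with 197782 transcript rows. Its values are a depth-scaled signal: per the study's methods, the authors used STAR for alignment to hg38, HTSeq for counting and DESeq2 for testing. The deposited row names are UCSC known gene transcripts, and the values themselves show that read counts had been divided by 1 factor per library, taken here to be DESeq2's size factor. The libraries were prepared from rRNA-depleted total RNA with a stranded kit. Tool versions and the strand setting of the counting are not given in the sources used here, so a gene and an overlapping antisense gene may share reads. Whole reads were recovered from the steps of the values, which were whole within 0.01 of a read for 100% of values, at size factors of 0.809 to 1.20. Column headers name the group and a running number (untreated 1 to 3, DAC 4 to 6, ATRA 7 to 9, DAC + ATRA 10 to 12), which number the libraries in the text. 0 columns stayed unassigned.

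Transcript positions and types were taken from GENCODE 44 and promoters from RefSeq (GRCh38.p14). Transcripts with at least 10 normalized reads in at least 3 libraries (19373) were tested with limma 3.58.1 (R 4.3.3, moderated test with a mean-variance trend and robust settings) on log2(normalized read count + 1), in 1 fit of all 12 libraries with 6 comparisons. P-values were adjusted by Benjamini-Hochberg over all tested transcripts and called under 0.01. Exact two-sided permutation tests and counting intervals came from scipy 1.17.1, and intervals and floors of 3 reads per group cover counting error only. The script was tested on simulated data. The alternatives were DESeq2 1.42.0 and edgeR 4.0.16 on the recovered reads, scaling to library size, a pseudocount of 0.1, no filter or a stricter one, protein-coding transcripts only, sums by symbol, only the groups compared, a threshold of 0.05, and leaving out each library. Values per library are given for the 20 called members with the largest fold change in any comparison with untreated cells, together with IL2RG, and by range for the other called members. For each list of related genes, the members with the highest and lowest fold change with DAC + ATRA were named. The members and lists were chosen with earlier results of these data known.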

Additional observations from a re-analysis of the deposited data

Results flagged for a closer look

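In 3 members, the effect of ATRA in cells given DAC differed from its effect in cells without DAC, by the limma test of the interaction on the log2 scale. The difference was 3.78 for IL2RA (adjusted p = 4.09e-05), -1.06 for IL1B (adjusted p = 0.00308) and -0.92 for IL7R (adjusted p = 0.00549). For IL2RA the adjusted p was 0.0374 to 0.459 with DESeq2, edgeR or a pseudocount of 0.1. Leaving out 1 library ended the call of IL1B in 7 of 12 cases (adjusted p 0.0102 to 0.0215) and that of IL7R in 8 (adjusted p 0.0145 to 0.0322), and that of IL7R was also lost with a pseudocount of 0.1 (adjusted p = 0.012). On the linear scale the sign for IL1B was the opposite, at 89.3 normalized reads above the summed rises (SE 38.2).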

How the results depend on the processing

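Of 71 called results of single members, 0 reversed and 52 held wherever the member was tested, 32 of them in every setting and 20 with at least 1 setting in which the member did not pass the filter; 15 were lost under at least 1 alternative and 15 without at least 1 library; the losses stand beside the values in the report except for IL12B, whose calls are not read. Counts of called members depended on the filter, because 19 members have at least 10 reads in every library: with that filter 8 were called with DAC, 11 with DAC + ATRA and 8 for DAC + ATRA against ATRA, beside 34.9%, 42.3% and 29.3% of all 11198 transcripts under it. With a pseudocount of 0.1, 9 were called for DAC + ATRA against DAC and 1 for the interaction, beside 1339 and 194 of all 19373 transcripts. At a threshold of 0.05 the interaction was called for 5, and no share of all transcripts is given for it. Apart from the threshold, the cause of these differences was not tested. Without 1 library, 12 to 15 members were called with DAC, 7 to 9 with ATRA, 16 to 20 with DAC + ATRA, 9 to 15 against DAC, 10 to 14 against ATRA, and 1 to 4 for the interaction. Over all transcripts, the calls moved as well. In the same order they ran from 5237 to 6927, 1030 to 1583, 6567 to 8458, 1088 to 2032, 4436 to 5623 and 159 to 573, of 18903 to 19241 tested. The interaction count was 1 without untreated library 2, DAC library 4, ATRA library 7, or DAC + ATRA library 10 or 12, beside 159 to 265 of all transcripts. Scaling to library size moved the median of all transcripts from 0.05 to -0.07 with DAC and from 0.05 to -0.1 with DAC + ATRA. No paired analysis was possible because the columns do not carry the replicate numbers of the sample titles. Depth limits the genes under the filter, for which a few reads decide the value.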

Other observations

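Antisense RNAs of the family, left out by the rule on symbols, were read beside it. IL12A-AS1 had means of 265 ± 23.9 normalized reads in untreated cells, 174 ± 17.4 with DAC, 81.1 ± 7.77 with ATRA and 31.3 ± 13.1 with both agents (SD, n = 3). It fell by 1.69 with ATRA (log2 fold change -1.69, adjusted p = 4.31e-07, limma) and by 3.11 with DAC + ATRA (-3.11, adjusted p = 9.13e-13), and was not called with DAC (-0.6, adjusted p = 0.0151). The counted IL12A-AS1 row shares no span with that of IL12A, which had at most 2 reads in any group. IL10RB-AS1 had means of 60.6 ± 12.3, 63.1 ± 13.4, 112 ± 21.5 and 148 ± 1.76 in the same order, and rose with ATRA (0.88, adjusted p = 0.0018) and with DAC + ATRA (1.3, adjusted p = 2.06e-06), the treatments in which IL10RB rose. Its counted row shares no span with that of IL10RB.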
